A study of Mus musculus with 24 samples.

Results

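Glycolysis splits glucose into pyruvate in the cytosol, and lactate dehydrogenase turns pyruvate into lactate. Resting T cells draw mostly on respiration, and T cells stimulated through their receptor are known to raise glycolysis and the genes of its enzymes as they grow and divide. The 10 genes described here encode an enzyme for 9 of the pathway's steps and for lactate formation: Hk2, Gpi1, Aldoa, Tpi1, Gapdh, Pgk1, Pgam1, Eno1, Pkm and Ldha. They were chosen by name, matched by symbol in the deposited files, and are 10 of 55400 genes after estimated counts were summed by gene.

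The 24 bulk RNA sequencing libraries came from male C57BL/6 mice of 11 weeks and form 6 groups of 4. Mice had received propyzamide, a herbicide, or an empty vehicle, and each treatment has an unstimulated group (labelled naive, without anti-CD3), a group 3 h after anti-CD3 and a group 24 h after anti-CD3. Anti-CD3 is an antibody against the signalling chains of the T cell receptor. The labels name no tissue, sort or dose and do not say if a library is 1 mouse, so p-values measure the spread between these libraries, which may be technical. The series title speaks of T cells of a bowel disease model, and all 10 T cell markers examined had counts. In 23 libraries together, Cd3e, a chain of the receptor complex, had 52.0 counts, Cd247 71.0, Cd3g 79.4, Cd3d 166.6 and Lck 167.0.

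Replicate numbers used here follow the order of the samples within each group. The labels give none, so equal numbers do not match libraries across groups. The deepest library, propyzamide 24 h replicate 3, held 9812458 counts, and the rest held 438750 to 2072033. Named protein-coding genes took 3.76% to 9.66% of counts in the 23 libraries and 30.0% in that deepest one, which also carried 78.0% of all counts on the 10 genes. The 10 genes together had between 10 and 813.9 counts in each of the other libraries. The lowest number, 10, belonged to propyzamide 3 h replicate 3, the shallowest library. Results that rest on these 2 libraries are given with and without them. Library names hold a sequencing index that was the same for both unstimulated groups and vehicle 3 h, and another for propyzamide 3 h and both 24 h groups. The labels do not call it a batch, and since each group has 1 index, index and group cannot be told apart between groups of unlike index.

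How the counts of these genes can be read depends on 2 sequence relations. Gapdh makes 1,3-bisphosphoglycerate from glyceraldehyde 3-phosphate and lies on chr6:125161715-125166467, minus strand (GRCm38). Gm7336, a processed pseudogene at chr7:51746647-51747878, plus strand, carries the whole coding sequence of Gapdh: all 999 coding bases before the stop codon are the same, with 0 differences. The first 120 coding bases follow, start codon in capitals, because a read from them could come from either locus.
Gapdh and Gm7336, coding bases 1 to 120: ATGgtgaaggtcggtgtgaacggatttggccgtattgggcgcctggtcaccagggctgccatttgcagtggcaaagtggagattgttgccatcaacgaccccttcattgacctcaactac

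Pkm encodes pyruvate kinase, which makes pyruvate and ATP in the last step of glycolysis, and its transcripts hold 1 of 2 exclusive exons. The upstream exon gives the M1 enzyme of muscle and brain, and the downstream exon the M2 enzyme typical of dividing cells. Both exons have 167 bases, of which 103 (61.7%) are the same at the same place. They are shown because this stretch alone separates the 2 enzymes, with the differing bases in capitals.
Pkm M1 exon, chr9:59675029-59675195, plus strand: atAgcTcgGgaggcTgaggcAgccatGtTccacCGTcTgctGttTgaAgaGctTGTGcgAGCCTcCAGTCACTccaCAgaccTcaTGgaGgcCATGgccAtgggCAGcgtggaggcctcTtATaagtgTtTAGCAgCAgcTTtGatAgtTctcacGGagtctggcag
Pkm M2 exon, chr9:59675568-59675734, plus strand: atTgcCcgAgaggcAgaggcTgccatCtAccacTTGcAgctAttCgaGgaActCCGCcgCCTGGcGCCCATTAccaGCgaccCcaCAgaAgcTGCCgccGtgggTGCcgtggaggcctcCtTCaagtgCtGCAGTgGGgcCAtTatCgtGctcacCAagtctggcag

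Levels can be compared between genes only per length, for which the deposited TPM (a length-corrected share of transcripts, summed by gene) was used. Over 24 libraries, the median TPM was 19.6 for Ldha, which forms lactate, and 15.3 for Gapdh. Eno1, the enolase, had a median of 10.7 TPM, Aldoa, the aldolase, 9.87 and Pkm 7.23. Gpi1, which converts glucose 6-phosphate to fructose 6-phosphate, had 5.73 TPM. The remaining medians were 3.64 TPM for Tpi1, which interconverts the triose phosphates, 3.60 for Pgam1, the phosphoglycerate mutase, 2.24 for Pgk1, which makes ATP from 1,3-bisphosphoglycerate, and 1.29 for Hk2, a hexokinase that phosphorylates glucose. The ranges over libraries of neighbours in this order overlapped, and in the deepest library the order again began with Ldha at 236 TPM and Gapdh at 179 TPM.

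Between libraries, levels are given as CPM (counts scaled to a common depth by TMM, which sets a common level for most genes). Of the 10 genes, 9 had their highest mean CPM in propyzamide 24 h libraries, and none was highest in an unstimulated group. Without the deepest library the count was 6, since Tpi1, Pgk1 and Pgam1 then had higher means in unstimulated propyzamide libraries: at 24 h and unstimulated under propyzamide, 17.6 and 21.8 CPM for Tpi1, 11.7 and 15.1 CPM for Pgk1, and 13.9 and 15.5 CPM for Pgam1. The lowest mean lay in vehicle 3 h libraries for 5 genes and in propyzamide 3 h libraries for 4. When the 6 groups of a gene were ordered by mean, the libraries of every neighbouring pair overlapped, in 50 of 50 pairs. As a share of counts on named protein-coding genes, which does not rest on TMM scaling, the 10 genes took 0.388% ± 0.138, 0.205% ± 0.102 and 0.519% ± 0.113 in propyzamide libraries that were unstimulated, at 3 h and at 24 h (SD, n = 4 each). In vehicle libraries the share was 0.265% ± 0.0541, 0.253% ± 0.0473 and 0.344% ± 0.0516 at the same stages. The 4 propyzamide 24 h libraries, from 0.394% to 0.667%, all lay above the 4 propyzamide 3 h libraries, from 0.0554% to 0.286%.

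**Figure D1:**
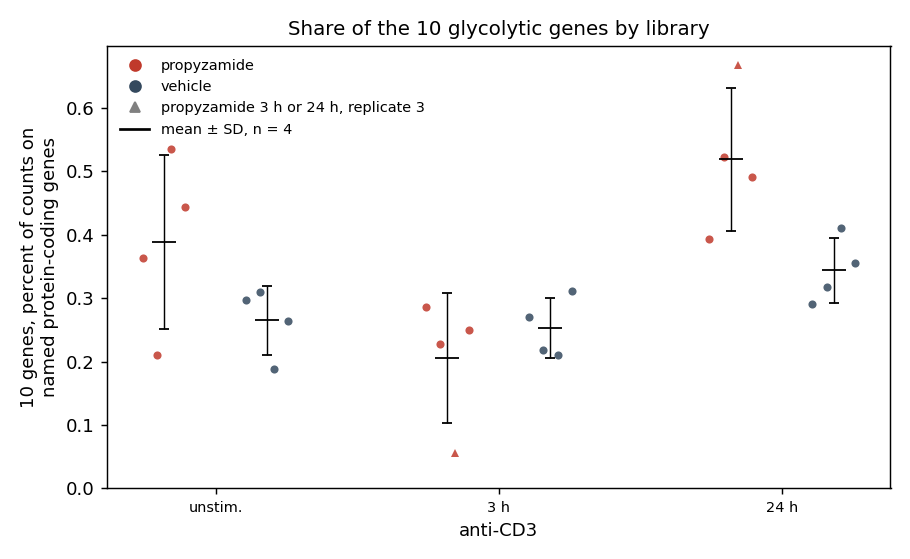
Share of counts on named protein-coding genes taken by the 10 glycolytic genes (percent, y axis) at each stage of anti-CD3 (x axis), 1 point per library, propyzamide left of vehicle, with mean and SD. The propyzamide 24 h libraries, 0.394% to 0.667%, lie above all propyzamide 3 h libraries, and the triangles mark the deepest library (24 h, 0.667%) and the one with fewest counts on these genes (3 h, 0.0554%).

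**Figure D2:**
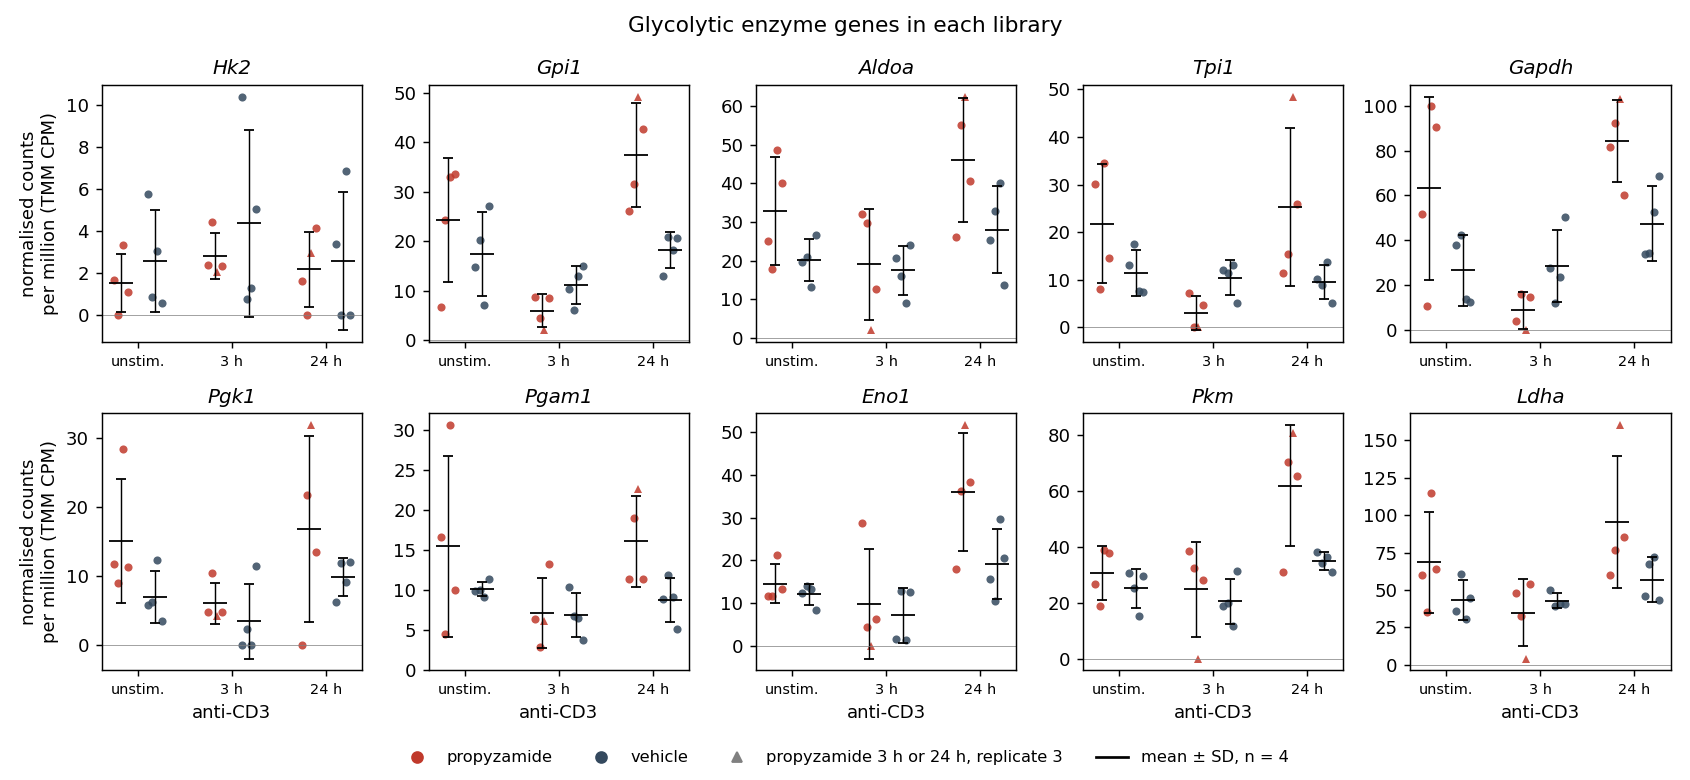
Normalised CPM of each of the 10 genes (y axis, scale set per gene) at each stage (x axis), 1 point per library, with mean and SD. Mean CPM is highest in propyzamide 24 h libraries for each gene other than Hk2, but without the deepest library Tpi1, Pgk1 and Pgam1 have their highest mean in unstimulated propyzamide libraries, and groups that neighbour in level overlap.

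The question of the time course was how stimulation moved these genes under each treatment, and the clearest difference lay between the later and the earlier time in propyzamide-treated mice. At 24 h against 3 h, 5 of the 9 genes tested were called higher by edgeR's quasi-likelihood test (Benjamini-Hochberg adjusted p of 0.05 or less over all 3799 genes tested): Gapdh, Tpi1, Gpi1, Ldha and Eno1. All 9 had positive log2 fold changes, from 1.13 to 3.19. The background was large in this comparison: 15.2% of all genes tested were called, and 8.61% were called higher, or 12.3% of the named protein-coding ones. Without propyzamide 3 h replicate 4 the number of all genes called was 182, and without propyzamide 24 h replicate 1 it was 873, against 579 with all libraries. The median log2 fold change was 1.61 for the 9 genes, 0.73 for all named protein-coding genes tested and 0.15 for all genes tested. Both groups have the same library index.

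Gapdh had 81.4, 92.1, 103 and 60.2 CPM in the propyzamide 24 h libraries, against 4.01, 16.3, 0 and 14.9 CPM in the propyzamide 3 h libraries. The groups did not overlap. The log2 fold change was 3.19 ± 0.63 (SE) with an edgeR adjusted p of 0.00523.

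Tpi1 had 11.4, 15.4, 48.5 and 25.9 CPM at 24 h under propyzamide, against 7.21, 0, 0 and 4.71 CPM at 3 h. The deepest library was the highest, and the groups did not overlap. Its log2 fold change was 2.84 ± 0.64 (edgeR adjusted p = 0.00979), and the 4 libraries at 3 h held 15.0 counts in all.

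Gpi1 had 26.1, 31.6, 49.2 and 42.6 CPM at 24 h under propyzamide, against 8.82, 4.45, 2.06 and 8.63 CPM at 3 h. Again no library of one group reached the other group's range in CPM. In TPM the groups overlapped, with 5.06 in propyzamide 24 h replicate 1 and 7.13 in propyzamide 3 h replicate 4. The log2 fold change was 2.53 ± 0.50 (edgeR adjusted p = 0.00499). With an offset for transcript length it was 1.49 ± 0.54 (edgeR adjusted p = 0.0666).

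Ldha had 60.2, 76.8, 160 and 85.1 CPM at 24 h under propyzamide, against 48.1, 32.6, 4.11 and 54.2 CPM at 3 h. The groups lay apart by a small margin, and the extreme values were those of the deepest library and of the library with fewest counts. In TPM the groups overlapped, with 20.5 in propyzamide 24 h replicate 1 and 23.8 in propyzamide 3 h replicate 4. The log2 fold change was 1.42 ± 0.44 (edgeR adjusted p = 0.0335). With these 2 libraries left out it was 0.75 ± 0.36 with an edgeR adjusted p of 0.215.

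Eno1 had 17.9, 36.1, 51.6 and 38.4 CPM at 24 h under propyzamide, against 28.8, 4.45, 0 and 6.28 CPM at 3 h. One 3 h library lay inside the 24 h range. Its log2 fold change was 1.74 ± 0.60 (edgeR adjusted p = 0.0477), and without the same 2 libraries it was 1.22 ± 0.60 with an adjusted p of 0.225.

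Without the deepest library, 3 of the 5 calls remained, those of Gapdh, Tpi1 and Gpi1, and the same 3 remained without propyzamide 3 h replicate 3. Without both, Gapdh (log2 fold change 2.80 ± 0.65, edgeR adjusted p = 0.0279) and Gpi1 (2.18 ± 0.53, adjusted p = 0.0362) remained called, while Tpi1 had 2.03 ± 0.66 and an adjusted p of 0.0765. Calls among all genes tested fell as well, from 579 with all libraries to 244 without the deepest library and 62 without both. Leaving out propyzamide 3 h replicate 2, propyzamide 24 h replicate 2 or propyzamide 24 h replicate 4 also left 3 calls among the 9 genes, and leaving out propyzamide 24 h replicate 1 gave 8. The 4 genes that were not called had adjusted p-values from 0.0647 to 0.116. They were Aldoa, with a log2 fold change of 1.24 ± 0.48, Pkm with 1.28 ± 0.48, Pgam1 with 1.13 ± 0.50 and Pgk1 with 1.61 ± 0.72. Of the 9, 4 had no overlap between the groups in CPM, against 12.3% of all genes tested in that direction. All genes tested include 1333 that are not named protein-coding, with a median log2 fold change of -0.72 in this comparison.

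**Figure D3:**
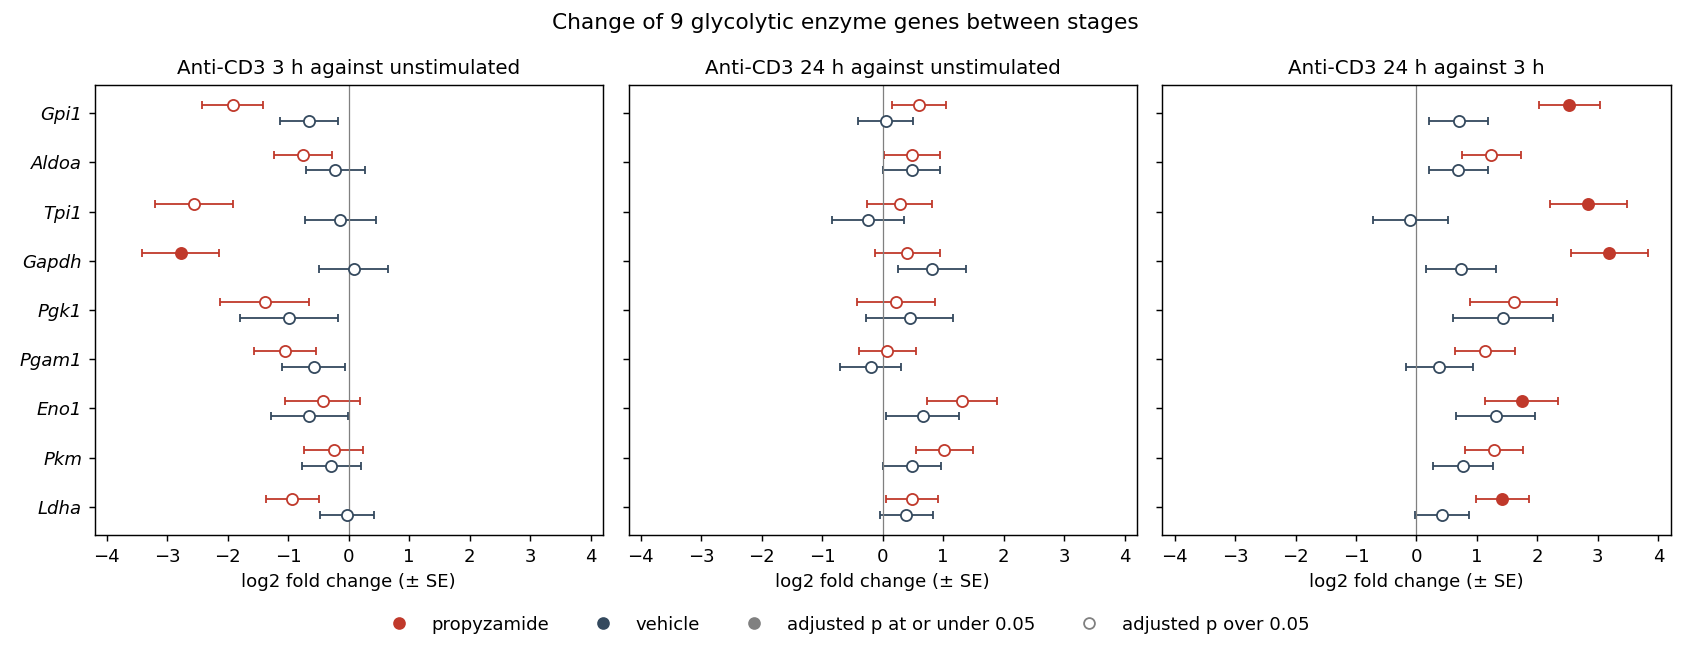
Fitted log2 fold changes (x axis, bars are SE) of the 9 genes tested (y axis, in pathway order) between stages, propyzamide above vehicle. Filled points have an adjusted p of 0.05 or less: 5 under propyzamide at 24 h against 3 h and Gapdh alone under propyzamide at 3 h against unstimulated.

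Summed markers of several cell types also lay higher at 24 h than at 3 h under propyzamide, without overlap. Scaled as CPM to the counts on named protein-coding genes, the 10 T cell markers summed to 689 to 1430 at 24 h, against 181 to 452 at 3 h. The 8 markers of activated T cells summed to 608 to 789, against 166 to 537, and the 6 proliferation genes to 564 to 857, against 55.3 to 508. The 7 B cell markers summed to 2200 to 4410 at 24 h, against 332 to 1550 at 3 h. Dendritic cell markers summed to 6550 to 11600 at 24 h, against 613 to 6360 at 3 h. Markers of the gut lining were present in both groups, at 362 to 7170 against 498 to 3830 for the intestinal epithelium and 3790 to 20500 against 5750 to 17000 for Paneth cells, and these overlapped. Plasma cell sums overlapped too (912 to 6160, against 332 to 9150). So did those of macrophages and monocytes (797 to 1640, against 229 to 1980) and neutrophils (127 to 598, against 55.3 to 1260). Red blood cell (34.0 to 784, against 295 to 940) and stroma and muscle sums (45.4 to 484, against 78.9 to 221) overlapped. With vehicle, where no member was called, sums at 24 h also lay above those at 3 h without overlap for T cells (654 to 949, against 249 to 537), B cells (2110 to 3750, against 862 to 1320) and proliferation (390 to 615, against 161 to 387). Vehicle sums for the intestinal epithelium lay lower at 24 h without overlap (188 to 454, against 1530 to 5060). Those for plasma cells did so as well (1370 to 1800, against 2290 to 5090). Vehicle sums overlapped for activated T cells (393 to 659, against 304 to 816) and dendritic cells (5300 to 11500, against 2310 to 6560). Every marker of these lists had counts in the 23 libraries without the deepest. Their part in the result was not tested. In bulk RNA a smaller share of cells of a type cannot be told apart from less RNA per cell.

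With vehicle, the same times gave no call among the 9 genes. The vehicle 3 h and 24 h groups differ in library index, unlike the propyzamide groups at these times. At 24 h against 3 h, 0 of 9 were called by edgeR, 0 had an unadjusted p under 0.05, DESeq2 called 0 as well, and 0.0% of all genes tested were called. Log2 fold changes ran from -0.10 for Tpi1 to 1.43 for Pgk1, with a median of 0.70, against 0.27 for named protein-coding genes. The smallest adjusted p was 0.415, for Eno1, with 15.7, 10.5, 29.7 and 20.6 CPM at 24 h against 1.73, 12.9, 1.31 and 12.6 CPM at 3 h. Vehicle 3 h replicates 1 and 3 had 1.2 and 1.0 counts on Eno1, beside 4.8 and 3.0 on its copies (gene models of like sequence, described below). On Pgk1 they had 0, beside 2.0 and 3.0 on copies. With copies added, the log2 fold change was 1.18 ± 0.55 for Eno1 (edgeR unadjusted p = 0.0396, adjusted p = 0.391) and 0.85 ± 0.55 for Pgk1 (adjusted p = 0.523). Whether the 24 h against 3 h difference itself differed between propyzamide and vehicle was not tested.

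At 3 h against unstimulated under propyzamide, Gapdh was the only one of the 9 genes called, and it was lower (log2 fold change -2.78 ± 0.63, edgeR adjusted p = 0.0323). Here 0.711% of all genes tested were called and 0.553% were called lower. Gapdh had 4.01, 16.3, 0 and 14.9 CPM in propyzamide 3 h libraries, against 51.8, 10.8, 100 and 90.5 CPM in unstimulated propyzamide libraries. One unstimulated library lay inside the 3 h range. The call was lost without propyzamide 3 h replicate 3 (log2 fold change -2.47 ± 0.62, adjusted p = 0.0852), and likewise without propyzamide 3 h replicate 1 or 4 or unstimulated propyzamide replicate 3 or 4. It was also lost when counts on the copies of Gapdh were added.

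Tpi1 had 7.21, 0, 0 and 4.71 CPM at 3 h under propyzamide, against 30.1, 8.10, 34.6 and 14.5 CPM in unstimulated propyzamide libraries, without overlap (5.11% of all genes tested did not overlap in that direction). Its adjusted p was 0.0563, and that of Gpi1 was 0.0591 with a log2 fold change of -1.92 ± 0.50. All 9 fold changes were negative, with a median of -1.05, against -0.42 for named protein-coding genes and -0.13 for all genes tested. Without unstimulated propyzamide replicate 3 the median was -0.55, against -0.29 for named protein-coding genes, and 0 of all genes were called, against 27 with all libraries. The number of all genes called was 5, 7, 12 and 12 without propyzamide 3 h replicate 3, 3 h replicate 4, 3 h replicate 2 and unstimulated replicate 4, and 43 and 63 without 3 h replicate 1 and the deepest library. Markers of Paneth cells, which line the gut crypts, summed to 5750 to 17000 CPM at 3 h under propyzamide, against 17500 to 48800 CPM unstimulated, and with vehicle to 8900 to 13200 CPM at 3 h, against 22800 to 36400 CPM unstimulated, without overlap under either treatment. The sums of T cell and B cell markers overlapped between propyzamide 3 h libraries (181 to 452 and 332 to 1550 CPM) and unstimulated propyzamide libraries (372 to 541 and 1150 to 2810 CPM). The part of these markers in the result was not tested. These groups differ in library index. With vehicle, where the 3 h and unstimulated libraries have the same index, the median was -0.29, 0 of 9 genes were called by edgeR or DESeq2, 0 had an unadjusted p under 0.05, and 0.29% of all genes tested were called. Gapdh there had 27.7, 12.2, 23.7 and 50.5 CPM at 3 h, against 38, 42.5, 13.8 and 12.5 CPM unstimulated.

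At 24 h against unstimulated, edgeR called 0 of the 9 genes with propyzamide (0.079% of all genes tested were called) and 0 with vehicle (0.421%). DESeq2 called 0 in both. Under each treatment, the 24 h and unstimulated groups differ in library index. With propyzamide all 9 log2 fold changes were positive, from 0.08 to 1.31, and Eno1 and Pkm had unadjusted p-values of 0.0322 and 0.0382 (edgeR adjusted 0.308 and 0.325). With vehicle the median was 0.45 and no unadjusted p was under 0.05. Pkm had 38.2, 34.3, 36.5 and 31 CPM in vehicle 24 h libraries, against 30.5, 25.4, 15.4 and 29.5 CPM in unstimulated vehicle libraries. These groups lay apart by a narrow margin, and 2.95% of all genes tested did so in that direction.

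The series also asks whether the herbicide moved these genes at a given stage. EdgeR called 0 of the 9 genes for propyzamide against vehicle in unstimulated libraries, at 3 h and at 24 h, as did DESeq2, and edgeR called 0.0% of all genes tested at each stage. At 24 h all 9 log2 fold changes were positive, from 0.73 to 1.44, with a median of 0.91 against 0.32 for named protein-coding genes. Tpi1 (log2 fold change 1.44 ± 0.58) and Gpi1 (1.08 ± 0.45) had unadjusted p-values of 0.0185 and 0.0243 and edgeR adjusted p-values of 0.410 and 0.472. Gpi1 had 26.1, 31.6, 49.2 and 42.6 CPM with propyzamide at 24 h, against 13, 20.9, 18.3 and 20.6 CPM with vehicle. It was the one member whose libraries did not overlap in CPM, against 2.47% of all genes tested in that direction. In TPM its groups overlapped, with 5.06 in propyzamide 24 h replicate 1 and 5.75 in vehicle 24 h replicate 2.

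In unstimulated libraries all 9 log2 fold changes for propyzamide against vehicle were also positive, with a median of 0.67 against 0.16 for named protein-coding genes. Without unstimulated propyzamide replicate 3 these medians were 0.34 and 0.03. Gapdh had 51.8, 10.8, 100 and 90.5 CPM with propyzamide, against 38, 42.5, 13.8 and 12.5 CPM with vehicle. Its log2 fold change of 1.26 ± 0.56 had an unadjusted p of 0.0317 and an edgeR adjusted p of 1.0. At 3 h the signs were mixed, 5 positive and 4 negative, and Gapdh (-1.61 ± 0.64) and Tpi1 (-1.5 ± 0.68) had unadjusted p-values of 0.0177 and 0.0368 (edgeR adjusted 1.0 for both). The propyzamide and vehicle groups differ in library index at 3 h, but not at the other stages. The tests of whether the response to anti-CD3 differed between treatments called 0 of the 9 genes at 3 h and 0 at 24 h, and 0.0% of all genes tested, with edgeR. DESeq2 called 0 of the 9 genes in both. At 3 h, Gapdh had a log2 difference of -2.86 ± 0.85 (edgeR unadjusted p = 0.00208, adjusted p = 0.997) and Tpi1 one of -2.42 ± 0.88 (unadjusted p = 0.0101, adjusted p = 0.997). No other of the 9 had an unadjusted p under 0.05. Of the groups in the 3 h test, propyzamide 3 h alone has the other library index. With counts on the copies of Gapdh added, its log2 difference at 3 h was -1.06 ± 0.53 (edgeR unadjusted p = 0.0548). Its log2 fold change for propyzamide against vehicle was then -0.37 ± 0.38 at 3 h and 0.70 ± 0.37 unstimulated (edgeR unadjusted p = 0.346 and 0.0695).

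Gapdh counts depended on how reads were divided among loci. The reference transcripts hold 43 gene models that share at least 50% of their stretches of 31 bases with Gapdh, 33 of them with counts. These took 53.5% of all counts on Gapdh and its copies, and 55.0% without the deepest library. Gm7336, with 97.3% of its stretches shared, had 3446.4 counts and Gm3839, a gene model on chromosome 14 annotated as protein-coding, with 55.6% shared, had 1049.9. The deepest library held 3051.7 of the Gm7336 counts, and without it Gm7336 had 394.7 counts and Gm3839 726.8. In single libraries the division was uneven. Propyzamide 3 h replicate 1 had 5.5 counts on Gapdh and 45.9 on Gm7336, while propyzamide 24 h replicate 1 had 50 on Gapdh and 0.1 on Gm7336.

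With the copies included, Gapdh had 121 to 219 CPM at 24 h under propyzamide, against 15.6 to 79.8 CPM at 3 h. The difference between these groups was called again, but its log2 fold change was 1.60 ± 0.38 (edgeR adjusted p = 0.0128), where Gapdh alone gave 3.19. At 3 h against unstimulated under propyzamide, the combined log2 fold change was -1.10 ± 0.38 with an adjusted p of 0.185. Propyzamide 3 h libraries carried 83.0% of the combined counts on the copies, the largest share of the 6 groups, and unstimulated propyzamide libraries 42.3%. The copies had 75.4, 30.7, 15.6 and 42.9 CPM in propyzamide 3 h libraries, against 36.1, 50.8, 56.3 and 47.4 CPM in unstimulated propyzamide libraries. Of the 177.1 counts on copies at 3 h under propyzamide, 94.1 lay in replicate 1. The part of this division in the low Gapdh level at 3 h was not tested.

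**Figure D4:**
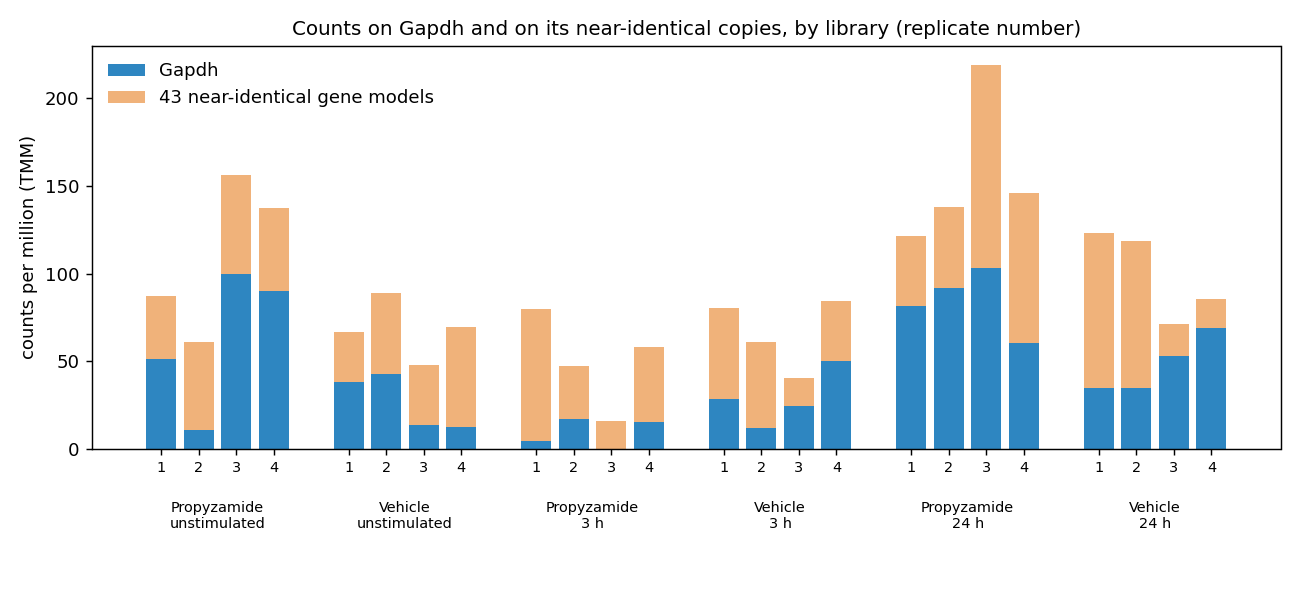
CPM on Gapdh (blue) and on its 43 copies together (orange), stacked, for each of the 24 libraries (x axis, replicate number within group). The copies, named near-identical in the figure, are gene models that share at least 50% of their stretches of 31 bases with Gapdh. Gm3839, with 55.6% shared, had 726.8 of their 1209.6 counts in the libraries other than the deepest. The combined height is 121 to 219 CPM in propyzamide 24 h libraries and 15.6 to 79.8 CPM in propyzamide 3 h libraries, and the division between blue and orange differs from library to library.

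The other genes had fewer counts on copies. Of Pgam1 and its copy together, 11.9% lay on the copy, of Eno1 4.55% and of Pgk1 3.65%. For Gpi1, Tpi1 and Pkm the share was at most 0.475%, while Aldoa, Ldha and Hk2 had 0 copies by this rule. Without the deepest library the shares were 6.58% for Pgam1, 14.4% for Eno1 and 17.0% for Pgk1. In single libraries the division was uneven for these genes too. Pgk1 had 0 counts in vehicle 3 h replicates 1 and 3 and propyzamide 24 h replicate 1, beside 2.0, 3.0 and 7.0 on its copies. For Eno1 the share on copies was 79.9% in vehicle 3 h replicate 1 and 0% in vehicle 3 h replicate 2. With copies added, Pgk1 passed the test at 24 h against 3 h under propyzamide, with a log2 fold change of 1.67 ± 0.52 (edgeR adjusted p = 0.0327).

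Most Pkm counts were assigned to the transcript with the M2 exon. In the deepest library, the M2 transcript had 2363.2 counts and the M1 transcript 174.9, so that M1 made up 6.89% of both (exact binomial 95% interval 5.94% to 7.95%, counting error only). The other 23 libraries together had 679.4 counts on M2 and 53.3 on M1, a share of 7.27% (5.47% to 9.36%). In 16 of the 22 of these with counts on either transcript, M1 had under 0.5 counts. Over the 4 unstimulated propyzamide libraries M1 had 0 of 126.0 counts. As a limit of counting only, that allows a share of up to 2.38% by the floor of 3 counts and 2.89% by the exact interval. The unstimulated vehicle libraries had 14.2 counts on M1, all in replicate 1. These limits and intervals treat each estimated count as a read that separates the 2 transcripts, so the true uncertainty is wider. Vehicle 3 h replicate 1 had 11.0 counts on M1 and 0 on M2. With each library's counts falling on 1 transcript in most cases, a difference in exon choice between groups was not detectable at this depth.

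Hk2, the hexokinase induced by stimulation in T cells, did not pass the filter on low counts, so 9 of the 10 genes were tested. It had 155.5 counts in 24 libraries, 93.6 of them in the deepest. Propyzamide libraries had 8.0, 10 and 98.6 counts in all when unstimulated, at 3 h and at 24 h, and vehicle libraries had 15.9, 12 and 11. Mean CPM was between 1.53 and 4.38 in the 6 groups, and the highest, in vehicle 3 h libraries, had an SD of 4.43. Differences in Hk2 were not detectable at this depth.

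All 10 genes had start sites in a RefSeq table of promoter windows (GRCm38.p6, 250 bases before to 50 after the start). For each gene other than Tpi1, the window nearest the start of its most counted coding transcript was read. The most counted coding transcript of Tpi1, with 148.2 counts in the 23 libraries, is not in the annotation used for positions. A coding transcript of Tpi1 with 3.3 counts in these libraries was used instead. Only 1 window was listed for Tpi1. ACGTG, the core of the element bound by hypoxia-inducible factors, occurred on either strand in 6 of the 10 windows and in 19.6% of all 32851 windows. GCGTG, its other form, occurred in 4 of 10 and in 32.4%. CACGTG, the E-box bound by Myc and its partners, occurred in Ldha alone of the 10 and in 7.15% of all. Of the 5 genes called higher at 24 h against 3 h under propyzamide, Gapdh and Ldha held ACGTG, Eno1 held GCGTG without ACGTG, and Tpi1 and Gpi1 held none of the 3. The windows of Eno1, Pkm and Tpi1 began at starts 244, 208 and 138 bases from that of the transcript used. For Tpi1 that was the transcript with 3.3 counts, and the distance to its most counted one was not measured. The windows of Ldha and Gapdh are shown with matches on either strand in capitals. Each CACGTG also counts as ACGTG on both strands.
Ldha, chr7:46845554-46845853, plus strand: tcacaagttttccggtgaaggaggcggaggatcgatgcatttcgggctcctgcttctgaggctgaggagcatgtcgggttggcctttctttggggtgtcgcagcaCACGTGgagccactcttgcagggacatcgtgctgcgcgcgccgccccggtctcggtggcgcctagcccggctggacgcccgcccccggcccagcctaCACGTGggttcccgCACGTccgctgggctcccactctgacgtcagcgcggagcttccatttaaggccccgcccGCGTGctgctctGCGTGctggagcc
Gapdh, chr6:125165724-125166023, minus strand: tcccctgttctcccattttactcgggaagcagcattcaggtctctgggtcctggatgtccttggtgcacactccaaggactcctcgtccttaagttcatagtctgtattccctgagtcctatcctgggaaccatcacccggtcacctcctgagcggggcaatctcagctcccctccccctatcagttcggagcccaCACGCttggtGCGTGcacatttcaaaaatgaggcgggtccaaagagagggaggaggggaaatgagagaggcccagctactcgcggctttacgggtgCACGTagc

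Genes next to the pathway were followed in 6 lists. Of 23 genes for pyruvate entry and the citric acid cycle, 12 were tested, and 3 were called higher at 24 h against 3 h under propyzamide, with all 12 fold changes positive and a median log2 fold change of 1.30. Among them were Idh3g, a subunit of isocitrate dehydrogenase (log2 fold change 2.80 ± 0.51, edgeR adjusted p = 0.00271), and Ogdh, of the oxoglutarate dehydrogenase complex (1.88 ± 0.52, adjusted p = 0.0247). Idh3g had 20.6 ± 3.07 CPM at 24 h and 2.68 ± 1.47 CPM at 3 h (SD, n = 4 each). It was also called lower at 3 h against unstimulated under propyzamide (log2 fold change -2.23 ± 0.52, edgeR adjusted p = 0.0330), a call lost without unstimulated propyzamide replicate 3 or 4 or propyzamide 3 h replicate 2, 3 or 4 (adjusted p from 0.0726 to 0.207). At 24 h against 3 h, Idh3g stayed called without both libraries that stand apart (2.79 ± 0.57, edgeR adjusted p = 0.0137), while Ogdh did not (1.31 ± 0.52, adjusted p = 0.132). The call of Ogdh was also lost without the deepest library or propyzamide 3 h replicate 2, 3 or 4, with adjusted p from 0.0504 to 0.0714. The most abundant genes of the list by mean TPM were Mdh2, the mitochondrial malate dehydrogenase, and Sdha and Sdhb of succinate dehydrogenase, with log2 fold changes of 1.31, 1.23 and 1.53 at 24 h against 3 h under propyzamide and adjusted p-values of 0.113, 0.0850 and 0.0971.

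In the other 5 lists, 0 genes were called in any comparison. Of 19 other glycolytic isoenzymes 2 were tested, among them Pfkp, a phosphofructokinase, with 9.26 ± 9.50 CPM at 24 h and 7.46 ± 6.36 CPM at 3 h under propyzamide (SD, n = 4 each). Pfkl, another phosphofructokinase, was not tested. Of 13 genes of glucose and lactate transport and control 2 were tested. These were Txnip, which lowers glucose uptake, with a log2 fold change of 1.11 ± 0.59 at 24 h against 3 h under propyzamide, and Pfkfb2 with 0.07 ± 0.63, while Pfkfb3 and the glucose carrier Slc2a1 did not pass the filter. Of 7 pentose phosphate genes 4 were tested, with a median of 0.50 in that comparison. The most abundant were Taldo1 (0.61 ± 0.58) and Tkt (1.11 ± 0.48), which were tested, and Pgls, which was not. Of 8 genes of gluconeogenesis and fructose entry, Mdh1 (0.84 ± 0.72) and Pck2 were tested, and Pcx and Khk were not.

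Of 8 transcription factors known to drive glycolytic genes, 3 were tested. Myc had 11.7 ± 8.26 CPM at 24 h and 11.0 ± 7.52 CPM at 3 h under propyzamide (SD, n = 4 each), a log2 fold change of 0.08 ± 0.60. Hif1a had 15.2 ± 8.37 and 4.14 ± 4.11 CPM at these times, with a log2 fold change of 1.71 ± 0.76 and an edgeR adjusted p of 0.11, Irf4 had 1.19 ± 0.58, and Max was not tested.

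The 9 genes varied together to unlike degrees. Pearson's r of log2 CPM over 24 libraries ran from 0.17 to 0.91 over their 36 pairs, with a median of 0.66, and the median was 0.46 without the 2 libraries that stand apart. The named genes most like the mean profile of the 9 were Rpl3 (r = 0.93), Tuba1b (0.93), Rplp0 (0.92), Rps4x (0.92) and Actg1 (0.92), of 2457 examined. These encode ribosomal proteins, a tubulin and an actin, all abundant in most cells. Without the 2 libraries their r lay between 0.82 and 0.89. The points share depth, TMM scaling and the share of counts on protein-coding genes, so these values describe the libraries only.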

How the data were processed

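Libraries were made by SMART-seq2, per the labels' protocols, and the submitters' processing notes name kallisto, with no version, and the build GRCm38. The authors deposited expected counts (estimated counts per transcript) for 142604 transcripts, with TPM beside them, per the file headers. Effective length, in bases, is a further deposited value, of another (other) kind. Estimated counts were summed by gene symbol or ID and rounded.

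The test was that of edgeR 4.0.16, run in R 4.3.3: filterByExpr, TMM, 1 coefficient per group over 24 libraries, the quasi-likelihood F test and Benjamini-Hochberg adjustment over 3799 genes (2466 named protein-coding). The biological coefficient of variation was 46.4%. The code was tested on simulated data. The TMM factor was 3.90 in the deepest library and 0.624 to 1.20 in the others. Log2 fold changes carry their standard error.

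Named genes are the 10 members, the called genes and the 3 most abundant genes of each list, and the 5 named genes most like the members' mean profile; some genes of the lists are not reported here. The members, lists and tests were chosen with earlier results of these data known. Alternatives used limma 3.58.1 and DESeq2 1.42.0. Positions are from GENCODE vM21, an annotation older than the authors', since some of their transcripts are not in it. Copies were found among the 141374 transcripts with sequence there, on the same strand. Intervals and floors cover counting error only.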

Additional observations from a re-analysis of the deposited data

Results flagged for a closer look

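In 4 of 60 combinations of gene and group, 1 library stood apart by Dixon's test at 95%, which chance gives in about 1 of 20. Pgk1 had 28.4 CPM in unstimulated propyzamide replicate 3, where the other 3 libraries had 9.0 to 11.7 CPM. Pgk1 had 10.4 CPM in propyzamide 3 h replicate 2, where the others had 4.11 to 4.81 CPM. Hk2 had 4.45 CPM in the same library, from 3.0 counts, which is the floor. Ldha had 50.2 CPM in vehicle 3 h replicate 1, where the others had 39.6 to 40.7 CPM.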

How the results depend on the processing

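At 24 h against 3 h under propyzamide, where 5 of 9 genes were called, DESeq2 called 9 and RLE scaling 8. Fits with all genes kept, with an offset for transcript length, with named protein-coding genes only or without the deepest library called 3. Fits of the 2 groups alone, limma-trend on log2(TPM + 0.1) and the fit without both the deepest library and propyzamide 3 h replicate 3, an alternative chosen after seeing the data, called 2. Of all genes, 579 were called, and 1044 with DESeq2, 891 with RLE, 153 with no filter, 358 with the offset, 109 among named protein-coding genes, 244 without the deepest library, 101 with the 2 groups alone, 321 with log2(TPM + 0.1) and 62 without both libraries. Leaving out 1 library at a time gave 3 to 8. Gapdh was called in 24 of 24 such fits and in 12 of 12 other settings, Tpi1 in 24 of 24 and 10 of the 11 that gave a value, Gpi1 in 24 of 24 and 9 of 12, Ldha in 19 and 6, and Eno1 in 6 and 5. At 3 h against unstimulated under propyzamide, where 1 gene was called, RLE, DESeq2 and the fit without the deepest library called 3. With the length offset, only the groups compared, copies added, limma-voom, either limma-trend or both libraries left out, 0 were called. Leaving out 1 library at a time gave 0 to 3. Of all genes, 27 were called in this comparison, and 53 with RLE and 63 without the deepest library. That number was 12 with the length offset, 0 with only the groups compared, 25 with copies added and 20 without both libraries. The other 9 comparisons had 0 of the 9 genes called in every setting.

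The median log2 fold change at 24 h against 3 h under propyzamide was 1.61, 1.14 to 1.84 when 1 library was left out, 1.01 without both libraries and 2.21 with log2(TPM + 0.1). For propyzamide against vehicle it was -0.80 at 3 h with log2(TPM + 0.1), with -0.42 to 0.25 when 1 library was left out, and 1.53 and 1.58 at 24 h with pseudocounts of 1 and 0.1. For the interaction it was -1.40 at 3 h with log2(TPM + 0.1), and 0.90 and 0.94 at 24 h with pseudocounts of 1 and 0.1. Leaving out 1 library moved other medians by over 1.5 times. At 24 h against unstimulated under propyzamide (0.49) it was 0.23, 0.78 and 0.30 without unstimulated propyzamide replicates 2 and 3 and the deepest library. With vehicle it was 0.26 without vehicle 24 h replicate 3 (0.45), 0.45 at 24 h against 3 h without vehicle 3 h replicate 2 (0.70) and -0.47 at 3 h against unstimulated without unstimulated vehicle replicate 3 (-0.29). The interaction ran from -0.08 to 0.69 at 24 h (0.27) and from -1.09 to -0.27 at 3 h (-0.54). The causes were not tested. RLE scaling set the median of all genes at 24 h against 3 h under propyzamide to 0.48, against 0.15 with TMM. Of 3550 values of single genes in other settings, 3472 stayed on their side of the threshold, 52 lost a call and 26 gained one, and the 155 that changed sign were called neither before nor after. No paired analysis was possible because the labels give the libraries no replicate numbers, and those used here only follow sample order. Depth limits Hk2 and exon choice in Pkm.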

Other observations

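For Tpi1 and Eno1, part of the counts was assigned to transcripts with a retained intron. In the deepest library these took 6.98% of Tpi1 counts and 10.2% of Eno1 counts, and in the other 23 libraries together 51.6% and 31.2%. For Ldha, Aldoa, Pkm, Gapdh and Pgam1 the share in the 23 libraries was between 1.10% and 3.20%. Of 21 of the 23 libraries with Tpi1 counts, 13 had at least 90% of them on retained-intron transcripts, 7 had at most 10% and 1 lay between. In propyzamide libraries, retained-intron transcripts of Tpi1 had 39.2 counts when unstimulated, 9.0 at 3 h and 134.5 at 24 h, beside 62.8, 6.0 and 1466.3 on its other transcripts. Without the deepest library the 24 h group had 26.2 counts on retained-intron transcripts and 22.8 on the others, a share of 53.5%, against 8.40% with it. In vehicle libraries they had 42.6, 28.1 and 21.0, beside 41.4, 7.7 and 15.0.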
